A study of Mus musculus with 12 samples.

Results

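Retinoid metabolism was followed through 9 genes in the ear skin of mice injected with either or both of the cytokines IL-17A and IL-36γ: Stra6, Rdh10, Dhrs9, Aldh1a1, Aldh1a2, Aldh1a3, Crabp1, Crabp2 and Cyp26b1. The genes were chosen by their place in the pathway, with earlier results of these data known. They were found by symbol and are 9 of the 50684 genes in the count table. All 9 had enough counts to be among the 19408 genes tested. The mice were female C57BL/6 animals of 8 weeks, and they were killed after 4 consecutive days of treatment, when RNA of a part of the ear was taken for sequencing. Ear pinnae were injected intradermally with PBS alone (the control), with 1 µg of IL-17A, with 1 µg of IL-36γ or with 1 µg of each cytokine (IL-17A + IL-36γ), all in 5 µL, so every mouse had the injury of the needle. Of the 5 mice in each group, 3 drawn at random were sequenced, 12 libraries in all. The injections serve as a model of the cytokine network of psoriasis. They are short and local, and RNA of unsorted ear tissue holds epidermis, dermis, cartilage, muscle and immune cells together, so that fewer cells of a type and less RNA per cell cannot be told apart.

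Retinoic acid is the active form of vitamin A and controls the growth and differentiation of keratinocytes, hair follicles and sebaceous glands through nuclear receptors. Cells take up retinol from its carrier protein in blood through Stra6, oxidize it to retinal with dehydrogenases such as Rdh10 and Dhrs9, and oxidize retinal to retinoic acid with Aldh1a1, Aldh1a2 or Aldh1a3. Crabp1 and Crabp2 bind retinoic acid inside the cell, Crabp2 being known to hand it to the receptors, and Cyp26b1 degrades it.

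Library totals lay between 25293468 and 34759293 counts. Levels are given as CPM, counts scaled to the library size after TMM normalization, and where genes are compared with each other as CPM per kb of exon. The keratins and collagens that define skin were abundant in every group, with Krt10 between 5054 and 8162 CPM in the PBS mice. PBS replicate 1 stood apart from the other PBS mice: its summed level of 5 skeletal muscle markers was 126.7 CPM, against 1710 and 1423 CPM, and among the PBS mice it had the highest level of 5 of the 9 genes and the lowest of 3. Values without this library are given for Stra6, Rdh10, Aldh1a3, Crabp1 and Crabp2, where they differ most or change sign. All comparisons with PBS share the same 3 PBS mice.

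Dhrs9 was the gene with the clearest response. Its mean level was 6.86 CPM in PBS mice, 17.4 CPM with IL-17A, 50.2 CPM with IL-36γ and 84.7 CPM with both cytokines, and it was the only one of the 9 genes called in each comparison with PBS. Cyp26b1 went the other way, from 109 CPM in PBS mice to 54.9 CPM with both cytokines, and Aldh1a1 was lowest and Aldh1a3 highest in the mice given both. Rdh10, the other retinol dehydrogenase, lay between 25.4 and 34.0 CPM in all 12 mice.

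**Figure D1:**
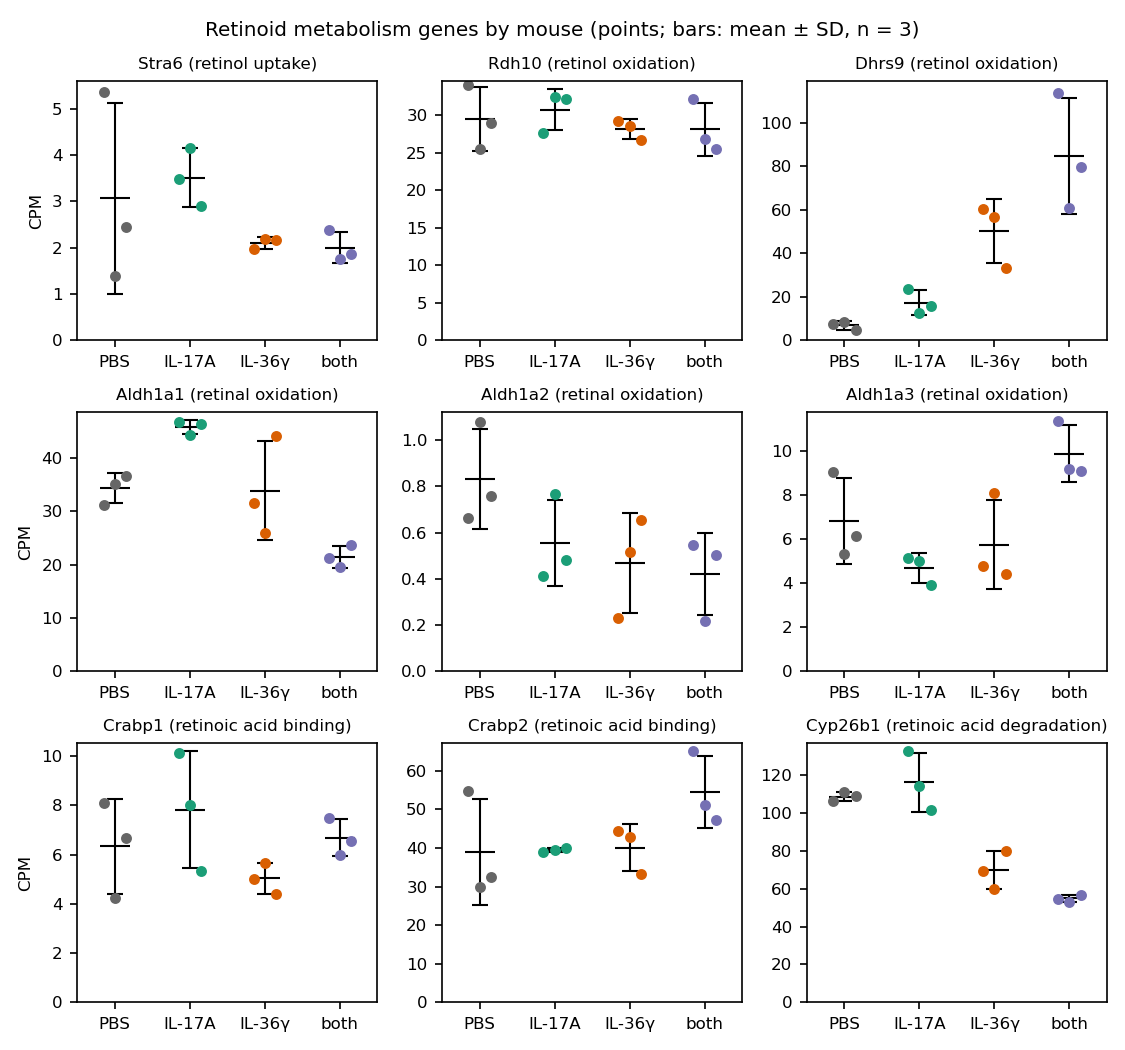
Level of each of the 9 genes in CPM (y axis, from 0) in each mouse (points) of the 4 groups, with mean ± SD of 3 mice as bars; "both" stands for IL-17A + IL-36γ. The Dhrs9 points climb from between 4.58 and 8.55 CPM in PBS mice to between 61.0 and 113 CPM with both cytokines, the Cyp26b1 points after both cytokines lie at 53.2 to 56.7 CPM, and the Rdh10 points of the 4 groups lie at the same height.

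Raised and lowered genes were those with an absolute log2 fold change above 1 and a p-value, adjusted by the method of Benjamini and Hochberg over all genes tested, below 0.05 in the quasi-likelihood test of edgeR on all 12 libraries. After IL-17A, 1 of the 9 genes was called (Dhrs9, raised), while 2.1% of all genes tested were called. After IL-36γ it was again 1 of 9 (Dhrs9) beside 7.1% of all genes, and after both cytokines 1 of 9 (Dhrs9) beside 13.4%. With the adjusted p-value alone, Cyp26b1 was also lower after IL-36γ, and Cyp26b1 and Aldh1a1 were lower after both cytokines, where the fold changes stayed just under or under the threshold. By this looser criterion 28.4% of all genes passed after IL-36γ and 44.6% after both cytokines. The median log2 fold change of the 9 genes was 0.10 with IL-17A, -0.25 with IL-36γ and -0.07 with both cytokines, and that of all genes tested was 0.04, -0.01 and -0.03.

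More of the genes separated when mice given both cytokines were set against those given IL-17A alone. There 4 of the 9 genes were called, Dhrs9 and Aldh1a3 raised and Aldh1a1 and Cyp26b1 lowered, while 8.95% of all genes tested were called. IL-36γ against IL-17A gave 1 of 9 (Dhrs9, raised) beside 1.61% of all genes. Between both cytokines and IL-36γ alone none of the 9 genes was called by edgeR, and only 0.0103% of all genes were. At an unadjusted p-value below 0.05 this last comparison held 5 of the 9 genes, 3 of them higher (Dhrs9, Aldh1a3 and Crabp2) and 2 lower (Aldh1a1 and Cyp26b1), beside 15.1% of all genes. DESeq2 called none of the 9 there and 0.828% of all genes. Across all other settings of edgeR and DESeq2, the adjusted p-value of Aldh1a1 there ranged from 0.00599 to 0.419. Its log2 fold change of -0.81 to -0.41 stayed under the threshold. The adjusted p-value of Aldh1a3 ranged from 0.0473 to 0.525.

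The mice of the groups themselves did not overlap for 3 of the 9 genes with IL-17A, 3 with IL-36γ and 5 with both cytokines in comparison with PBS, beside 33.6%, 41.7% and 52.5% of all genes tested. For both cytokines against IL-17A this held for 6 of the 9 genes beside 48.4% of all genes, and for IL-36γ against IL-17A for 4 beside 31.7%. For both cytokines against IL-36γ it held for 6 of the 9 genes, beside 20.6% of all genes. Of these, 4 were higher and 2 lower, beside 9.33% and 11.3% of all genes.

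**Figure D2:**
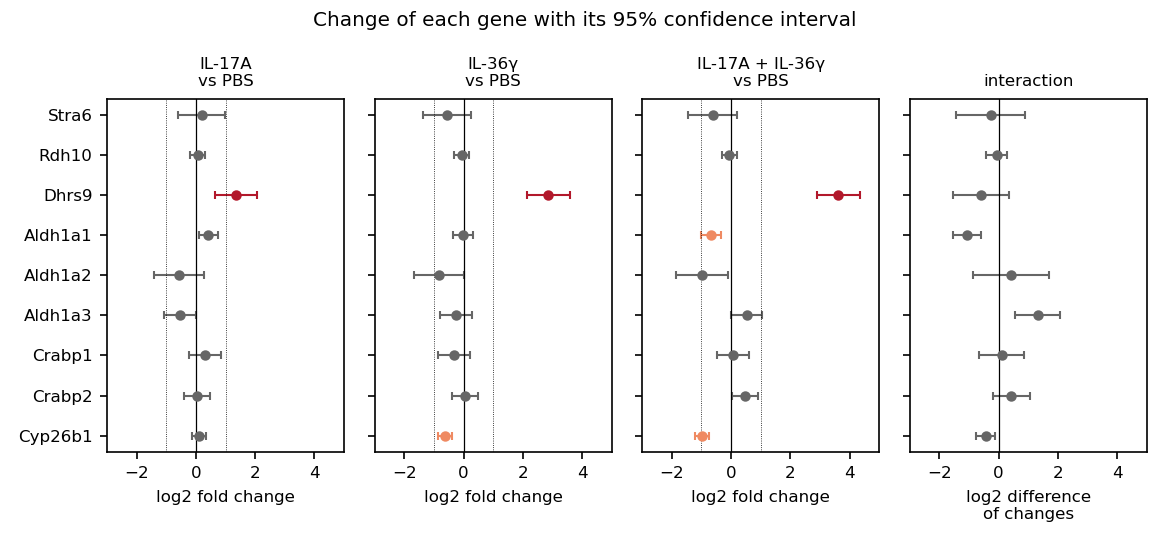
Log2 fold change against PBS of each of the 9 genes for each single cytokine and for the pair, together with the interaction, the change by IL-17A with IL-36γ minus that without it (x axes), with 95% confidence intervals from edgeR; dark red points were called, orange points passed the adjusted p-value alone, grey points did neither, and dotted lines mark the fold change threshold. Only Dhrs9 is dark red, at 1.34, 2.87 and 3.62, and Cyp26b1 lies at -0.64 and -0.98 in orange after IL-36γ and after both cytokines.

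Stra6, the membrane receptor that takes up retinol, was expressed at a low level. It measured 5.37, 1.39 and 2.46 CPM in the PBS mice, 3.49, 4.16 and 2.90 CPM with IL-17A, 1.96, 2.19 and 2.17 CPM with IL-36γ, and 2.38, 1.76 and 1.87 CPM with both cytokines. The PBS mice spread across the whole range of the other groups, while the mice of both groups given IL-36γ lay under all mice given IL-17A alone. Its log2 fold change against PBS was 0.20 with IL-17A (95% confidence interval -0.60 to 0.99), -0.54 with IL-36γ (-1.36 to 0.27) and -0.62 with both cytokines (-1.44 to 0.20), none of which passed the test. These values rest on PBS replicate 1, the highest of its group. Without it they were 0.88 with IL-17A, which passed the adjusted p-value (0.0267) but not the fold change threshold, 0.14 with IL-36γ (adjusted p = 0.678) and 0.06 with both cytokines (adjusted p = 0.852).

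Dhrs9 (ENSMUSG00000027068, chr2:69380445-69404533 on the plus strand of GRCm38) encodes a short-chain dehydrogenase that oxidizes retinol to retinal. The bases before its transcription start are shown because it was the one gene called in each comparison with PBS. The sequence is the plus strand of chr2:69380212-69380461, from the RefSeq promoter table of GRCm38.p6, ends at the base before the RefSeq start, and holds motif matches in capitals. Its last 17 bases lie in the first exon of the Ensembl gene, which starts further upstream than the RefSeq transcript.

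Dhrs9: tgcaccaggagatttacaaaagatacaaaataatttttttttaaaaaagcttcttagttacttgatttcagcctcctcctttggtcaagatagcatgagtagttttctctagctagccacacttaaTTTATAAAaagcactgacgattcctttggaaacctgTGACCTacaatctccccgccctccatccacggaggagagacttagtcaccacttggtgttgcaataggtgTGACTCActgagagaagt

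Both strands of 300-base windows, 250 bases before the start and 50 after it, were searched for 6 motifs. These were TATAAA, the AP-1 motif TGANTCA, the STAT motif TTCNNNGAA, the NF-κB motif, the 6-base core of nuclear receptor sites, and direct repeats of this core spaced by 5 bases, the arrangement that retinoic acid receptors are best known to bind. The core was taken as AGGTCA. Its variants AGTTCA or, next, GGGTCA and lastly GGTTCA counted too. The Dhrs9 window held TGACTCA starting 18 bases before the start, a core site on the minus strand starting 88 bases before it, and TATAAA on both strands in an overlapping match at 124 and 122 bases before it. The AP-1 motif reads the same on both strands and was counted as 1 position. Of 32851 windows of all genes, 7.81% held the AP-1 motif, 43.7% a core site and 13.6% TATAAA, and these matches are a description of the letters only. A window was matched for 6 of the 9 genes (Stra6, Dhrs9, Aldh1a1, Aldh1a2, Crabp1 and Cyp26b1; not for Rdh10, Aldh1a3 and Crabp2). None of the 6 held the direct repeat, which 0.0974% of all windows held, or the STAT motif, which 8.3% held, and the windows of Stra6, Aldh1a2 and Crabp1 held none of the 6 motifs.

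Dhrs9 measured 7.45, 8.55 and 4.58 CPM in the PBS mice, from 151 to 302 counts. It measured 23.7, 12.8 and 15.7 CPM with IL-17A, 60.3, 56.8 and 33.4 CPM with IL-36γ, and 113, 61.0 and 79.6 CPM with both cytokines. Every mouse of a group lay above every mouse of the group before it in this order. IL-17A raised Dhrs9 2.53-fold (log2 fold change 1.34, SE 0.32, adjusted p = 0.0292). IL-36γ raised it 7.30-fold (2.87, SE 0.33, adjusted p = 0.000147) and both cytokines 12.3-fold (3.62, SE 0.33, adjusted p = 2.01e-05).

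The call of Dhrs9 after IL-17A depended on single libraries, while its log2 fold change stayed above 1 in every alternative. Without PBS replicate 2, PBS replicate 3 or IL-17A replicate 1 this log2 fold change was 1.52, 1.11 and 1.02. The adjusted p-values of Dhrs9 were then 0.0623, 0.136 and 0.146. Over all genes 142, 11 and 33 were called in these fits, in place of 407. The changes after IL-36γ and after both cytokines were called in every alternative computed, with log2 values of 2.65 to 3.09 and of 3.36 to 3.82. Dhrs9 was also 2.88-fold higher with IL-36γ than with IL-17A (log2 1.53, SE 0.31, adjusted p = 0.0150) and 4.87-fold higher with both cytokines than with IL-17A (log2 2.28, SE 0.31, adjusted p = 0.000480). The difference between IL-36γ and IL-17A was no longer called without IL-17A replicate 2 or without IL-36γ replicate 2, with adjusted p-values of 0.0786 and 0.0658.

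Adding IL-17A to IL-36γ left Dhrs9 1.69-fold higher than IL-36γ alone (log2 0.75, 95% confidence interval 0.11 to 1.40), with all mice given both above all mice given IL-36γ, but not past the test over all genes (adjusted p = 0.265). The interaction asks whether the log2 change by one cytokine differs with the other one present. For Dhrs9 it was -0.58 (SE 0.43, 95% confidence interval -1.53 to 0.36, adjusted p = 0.442). In CPM, the increase over PBS after both cytokines exceeded the sum of the increases over PBS by the single cytokines by 24.0 CPM with a standard error of 17.9 CPM.

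The 3 tested genes whose log2 CPM, centred over the 12 libraries, ran closest to that of Dhrs9 were Il1f6, which encodes the cytokine IL-36α, Lst1, a gene of leukocytes, and Sirpb1b, of a family of receptors on myeloid cells. Their root mean square difference from Dhrs9 was 0.226, 0.316 and 0.323 on the log2 scale, beside a root mean square of 1.44 for Dhrs9 itself. These are the closest of all genes tested and carry no test.

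The summed neutrophil and proliferation markers rose in the same order of groups as Dhrs9. The macrophage sum was instead highest with IL-36γ alone, at a mean of 1180 CPM beside 1055 CPM with both cytokines. Of 5 neutrophil markers (Ly6g, Csf3r, Cxcr2, Retnlg and Mmp8), 3 were raised with IL-17A, 5 with IL-36γ and 5 with both cytokines. Their summed level ranged from 7.49 to 12.1 CPM in PBS mice, from 19.8 to 51.8 CPM with IL-17A, from 54.0 to 75.8 CPM with IL-36γ and from 89.6 to 182 CPM with both. Ly6g, which defines mature neutrophils in the mouse, was at 0 counts in the 3 PBS mice, at up to 4 counts with IL-17A, at 1 to 7 counts with IL-36γ and at 15 to 22 counts with both. In the PBS, IL-17A and IL-17A + IL-36γ groups the mouse with the highest neutrophil sum also had the highest Dhrs9, and in the IL-36γ group it did not. The 6 macrophage markers summed to 523 to 601 CPM in PBS mice, 760 to 1028 CPM with IL-17A, 1108 to 1273 CPM with IL-36γ and 962 to 1167 CPM with both, with 0, 4 and 3 of 6 raised. The 5 proliferation markers summed to 310 to 626, 547 to 683, 1054 to 1218 and 1396 to 1585 CPM in the same order, with 0, 5 and 5 of 5 raised.

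The summed markers of keratinocytes, the cells of the epidermis, rose in this order too, though not every marker did. The 5 basal markers summed to 8124 to 10269 CPM in PBS mice, 11226 to 13988 CPM with IL-17A, 12489 to 15287 CPM with IL-36γ and 15547 to 19620 CPM with both cytokines, with Krt14 raised by both. The 5 suprabasal markers, of cells that have left the basal layer, summed to 7460 to 11192, 9261 to 11668, 13299 to 18926 and 16200 to 18205 CPM in the same order. Of these, Krt1 was raised in each comparison with PBS, from a mean of 392 CPM in PBS mice to 1160 CPM with IL-17A, 3443 CPM with IL-36γ and 7254 CPM with both cytokines, and Ivl was raised with IL-36γ and with both. For Krt1, as for Dhrs9, the mice of the 4 groups did not overlap. From PBS to both cytokines the means of Krt5, Itga6 and Krt10 were also higher. Those of Col17a1 (1193 to 890.5 CPM) and Dsg1a (1901 to 1549 CPM) were lower, without overlap of the mice. Trp63 (326.9 to 306.6 CPM) and Lor (264.6 to 260.8 CPM) changed little. No marker of the basal and suprabasal lists was at 0 in any library. The part of immune, proliferation and keratinocyte markers in the Dhrs9 result was not tested.

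For Rdh10, a retinol dehydrogenase that the embryo needs, no such change was seen. It measured 34.0, 25.4 and 29.0 CPM in PBS mice, 27.6, 32.4 and 32.2 CPM with IL-17A, 29.1, 28.6 and 26.7 CPM with IL-36γ, and 32.1, 26.8 and 25.4 CPM with both cytokines. The 4 groups overlapped, and its log2 fold change against PBS after both cytokines was -0.07 with a 95% confidence interval of -0.32 to 0.18 (0.048 without PBS replicate 1). Per kb of exon, Dhrs9 made up 18.5% ± 5.72 (SD, n = 3) of the summed level of Dhrs9 and Rdh10 after PBS. This share was 35.1% ± 9.23 with IL-17A, 62.5% ± 6.63 with IL-36γ and 73.9% ± 4.45 with both cytokines, and the mice of the 4 groups did not overlap. Among the 9 genes per kb, Dhrs9 had rank 6 after PBS and with IL-17A, rank 3 with IL-36γ and rank 2 with both cytokines, when only Crabp2 was higher.

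**Figure D3:**
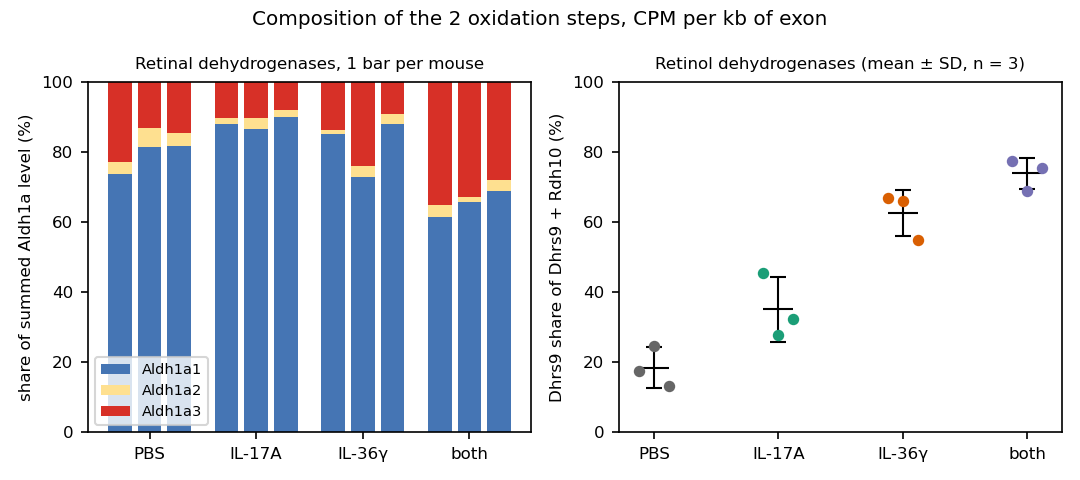
Left, share in percent of Aldh1a1, Aldh1a2 and Aldh1a3 in their summed CPM per kb of exon, 1 stacked bar per mouse; right, share of Dhrs9 in the sum of Dhrs9 and Rdh10 in each mouse (points) with mean ± SD of 3 mice. The Aldh1a3 part takes 28.1% to 35.2% in the mice given both cytokines and at most 24.1% in all other mice, and the Dhrs9 share climbs from 18.5% after PBS to 73.9% after both cytokines.

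The retinal dehydrogenases differed from each other. Aldh1a1 (ENSMUSG00000053279, chr19:20492715-20643465, plus strand) was the most abundant of the 3, and its promoter bases are shown because its 2 changes by IL-17A, with and without IL-36γ, went in opposite directions. They are the plus strand of chr19:20601718-20601967 from the same RefSeq table, which lists 2 starts for this gene, and end at the start nearest to the principal annotated transcript, whose first exon holds the last 7 of them. The capitals mark the core site, on the minus strand.

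Aldh1a1: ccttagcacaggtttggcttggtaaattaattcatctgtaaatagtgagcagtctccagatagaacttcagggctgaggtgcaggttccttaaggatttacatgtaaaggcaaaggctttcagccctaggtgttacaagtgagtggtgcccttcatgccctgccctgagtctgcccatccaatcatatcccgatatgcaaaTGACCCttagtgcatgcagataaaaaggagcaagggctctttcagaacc

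Aldh1a1 measured 31.2, 35.2 and 36.6 CPM in PBS mice and 46.8, 44.4 and 46.4 CPM with IL-17A. It measured 31.5, 26.0 and 44.1 CPM with IL-36γ and 21.2, 19.6 and 23.7 CPM with both cytokines. All mice given IL-17A alone lay above all PBS mice, and all mice given both cytokines lay under every other mouse. IL-17A alone gave a log2 fold change of 0.42 (SE 0.15, adjusted p = 0.0890), short of the threshold. IL-36γ alone gave -0.02 (95% confidence interval -0.35 to 0.31). After both cytokines Aldh1a1 was 1.60-fold lower than after PBS, with a log2 fold change of -0.67 (SE 0.15, adjusted p = 0.00428) that is under the fold change threshold. Against IL-17A alone it fell by 1.09 on the log2 scale, 2.13-fold (SE 0.16, adjusted p = 0.000571).

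The effect of adding IL-17A was therefore compared with and without IL-36γ. In the absence of IL-36γ the log2 change of Aldh1a1 by IL-17A was 0.42, in its presence it was -0.65 (SE 0.16, adjusted p = 0.120), and the interaction was -1.07 (SE 0.22, unadjusted p = 0.000344, adjusted p = 0.0532). None of the 9 genes passed an adjusted p-value of 0.05 for the interaction in edgeR, in which 0.551% of all genes tested did. At an unadjusted p-value below 0.05 there were 3 of the 9, beside 22.5% of all genes. DESeq2 called Aldh1a1 (adjusted p = 0.000421) and Aldh1a3 (adjusted p = 0.00611), beside 12% of all genes with an adjusted p-value. Leaving out PBS replicate 1 brought Aldh1a1 past the threshold (adjusted p = 0.0285), beside 7.77% of all genes, and leaving out IL-36γ replicate 2 brought in both genes (0.0347 and 0.0446), beside 1.14%. In CPM, the change of Aldh1a1 from PBS after both cytokines lay 23.9 CPM under the sum of the changes by the single cytokines, with a standard error of 5.78 CPM.

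Aldh1a3, the dehydrogenase best known from epithelia, went the opposite way at a lower level. It measured 9.02, 5.32 and 6.15 CPM in PBS mice, 5.15, 4.99 and 3.90 CPM with IL-17A, 4.76, 8.07 and 4.41 CPM with IL-36γ, and 11.4, 9.18 and 9.10 CPM with both cytokines. All mice given both cytokines lay above all others, though PBS replicate 1 came close, and all mice given IL-17A alone lay under the PBS mice. Both cytokines raised Aldh1a3 2.11-fold over IL-17A alone (log2 1.07, SE 0.25, adjusted p = 0.00707). Without IL-17A replicate 3 or IL-17A + IL-36γ replicate 1 this log2 fold change was 0.96 in both cases, just under the threshold, with adjusted p-values of 0.0300 and 0.0304.

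Against PBS, the log2 fold change of Aldh1a3 was -0.54 with IL-17A (adjusted p = 0.161), -0.25 with IL-36γ (adjusted p = 0.466) and 0.53 with both cytokines (adjusted p = 0.0952). Without PBS replicate 1 these were -0.29, 0.0089 and 0.78, with adjusted p-values of 0.408, 0.978 and 0.0179. Both cytokines against IL-36γ alone gave 0.78 (SE 0.25, adjusted p = 0.192), and 1.11 (adjusted p = 0.0490) without IL-36γ replicate 2, whose 8.07 CPM was the highest of its group. The interaction was 1.32 (SE 0.35, unadjusted p = 0.00264, adjusted p = 0.0758). In CPM, the change from PBS after both cytokines exceeded the sum of the single changes by 6.29 CPM with a standard error of 1.82 CPM. Up to 0.543% of the 76-base windows of its transcripts were found in another gene, and 0.953% of those of Aldh1a1 in its close paralog Aldh1a7, where the counting could not have told the genes apart.

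Aldh1a2, the main source of retinoic acid in the embryo, was the least abundant of the 9 genes in each group, with 6 to 38 counts per library. Its level was 0.664, 1.08 and 0.758 CPM in PBS mice, 0.413, 0.765 and 0.483 CPM with IL-17A, 0.233, 0.518 and 0.654 CPM with IL-36γ, and 0.546, 0.219 and 0.502 CPM with both cytokines. The mice of both groups given IL-36γ lay under the PBS mice, but the log2 fold changes of -0.83 and -0.97 did not pass the test (adjusted p = 0.129 and 0.0679). With library size as the only scaling it was called after both cytokines (log2 -1.12, adjusted p = 0.0451).

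Aldh1a1 was the largest part of the retinal dehydrogenases in every group. Aldh1a1 held 78.9% ± 4.49 (SD, n = 3) of the summed level per kb of exon after PBS, 88.1% ± 1.76 with IL-17A, 81.8% ± 8.02 with IL-36γ and 65.2% ± 3.67 with both cytokines. Aldh1a3 held 16.9% ± 5.20, 9.60% ± 1.32, 15.7% ± 7.59 and 32.1% ± 3.58 in the same order. The sum of the 3 genes was 8.80 ± 0.260 CPM per kb after PBS, 10.5 ± 0.201 with IL-17A, 8.31 ± 1.62 with IL-36γ and 6.68 ± 0.547 with both cytokines. All mice given both cytokines had a lower sum than all other mice. These sums and shares are a description and were not tested.

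Of the binding proteins, Crabp2 was the most abundant of the 9 genes per kb of exon in every group and Crabp1 was lower. Crabp2 measured 54.7, 29.9 and 32.4 CPM in PBS mice, 39.0, 39.6 and 40.1 CPM with IL-17A, 44.3, 42.8 and 33.2 CPM with IL-36γ, and 65.1, 51.2 and 47.3 CPM with both cytokines. The mice given both cytokines lay above all mice given a single cytokine, and PBS replicate 1 lay among them. The log2 fold change after both cytokines was 0.48 against PBS (95% confidence interval 0.04 to 0.92, adjusted p = 0.0695). Without PBS replicate 1 it was 0.81 with an adjusted p-value of 0.000798, still under the fold change threshold. The log2 fold changes after IL-17A and IL-36γ alone were 0.02 and 0.04, and without PBS replicate 1 they were 0.35 (adjusted p = 0.0954) and 0.37 (adjusted p = 0.0602).

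Crabp1, which is thought to lead retinoic acid towards degradation, measured 8.08, 4.25 and 6.67 CPM in PBS mice, 10.1, 8.01 and 5.35 CPM with IL-17A, 5.02, 5.67 and 4.41 CPM with IL-36γ, and 7.49, 6.00 and 6.55 CPM with both cytokines. The groups overlapped with PBS in each comparison. Its log2 fold changes against PBS were 0.31, -0.33 and 0.08, with 95% confidence intervals of -0.23 to 0.84, -0.87 to 0.21 and -0.46 to 0.62. Without PBS replicate 1 they were 0.53, -0.11 and 0.30, with adjusted p-values of 0.153, 0.750 and 0.356.

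Cyp26b1 (ENSMUSG00000063415, chr6:84571414-84593908, minus strand) encodes the cytochrome P450 that clears retinoic acid and had rank 2 of the 9 genes per kb after PBS. Its promoter bases are shown because it was the one gene lower by the adjusted p-value in both groups given IL-36γ. The sequence is the minus strand of chr6:84593909-84594060 from the RefSeq table, ends before the first annotated exon of the gene, and holds in capitals the NF-κB motif, starting 206 bases before the RefSeq start, and TATAAA, starting 139 bases before it. The NF-κB motif matched on both strands at 1 position, and 8.46% of all windows held it.

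Cyp26b1: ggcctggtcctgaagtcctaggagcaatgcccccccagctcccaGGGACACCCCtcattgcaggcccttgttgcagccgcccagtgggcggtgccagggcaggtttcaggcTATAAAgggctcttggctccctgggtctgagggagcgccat

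Cyp26b1 measured 106, 111 and 109 CPM in PBS mice, with little spread, and 133, 114 and 102 CPM with IL-17A. It measured 69.2, 60.0 and 79.9 CPM with IL-36γ and 54.7, 53.2 and 56.7 CPM with both cytokines. All mice given IL-36γ lay under all mice not given it, and those given both cytokines lay under those given IL-36γ alone. The log2 fold change against PBS was 0.10 after IL-17A (95% confidence interval -0.13 to 0.33). After IL-36γ it was -0.64 (SE 0.11, adjusted p = 0.00144), 1.56-fold lower, and after both cytokines -0.98 (SE 0.11, adjusted p = 4.76e-05), 1.98-fold lower, so that neither reached the fold change threshold. Against IL-17A alone, Cyp26b1 fell by 1.08 on the log2 scale after both cytokines (SE 0.11, adjusted p = 0.000134). This was 0.95, under the threshold, without IL-17A replicate 1, with an adjusted p-value of 0.000352. IL-36γ against IL-17A gave -0.74 (SE 0.11, adjusted p = 0.00407), and both cytokines against IL-36γ gave -0.34 (SE 0.11, adjusted p = 0.191).

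The summed levels of several marker lists of dermal and other cells were lower after both cytokines, as were Cyp26b1 and Aldh1a1, though some markers changed little. The summed level of 5 adipocyte markers ranged from 70.7 to 103 CPM in PBS mice, from 68.3 to 138 CPM with IL-17A, from 34.2 to 89.6 CPM with IL-36γ and from 19.9 to 42.6 CPM with both, where 5 of 5 were lowered. The 3 dermal papilla markers ranged from 54.5 to 106, 68.7 to 89.5, 47.0 to 69.6 and 23.3 to 37.6 CPM in the same order, and 2 of 3 were lowered after both. The 6 fibroblast markers ranged from 5674 to 6362, 5357 to 8681, 4618 to 4855 and 4061 to 4615 CPM, with 1 of 6 lowered after both. Among them the means of Pdgfra (172.7 to 161.8 CPM) and Lum (394 to 369 CPM) changed little from PBS to both cytokines. No marker of these 3 lists was at 0 in any library. Of the other lists, 2 of the 4 cartilage markers tested (Matn1, the fifth, was at 0 counts in all IL-36γ mice), 1 of 4 Schwann cell markers and 2 of 5 melanocyte markers were lowered after both cytokines. The sum of the endothelial markers changed little, from a mean of 141.2 CPM after PBS to 140 CPM with both cytokines. The part of these lists in the results was not tested.

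The 9 genes stand in a wider pathway of 54 further genes, of which 47 had enough counts to be tested. After IL-17A 1 of these 47 was raised and none lowered, while 1.07% of all genes were raised and 1.03% lowered. After IL-36γ 4 were raised and 2 lowered, beside 5.11% and 1.98% of all genes. After both cytokines 3 were raised and 5 lowered, beside 7.35% and 6.06% of all genes. The median log2 fold change of the 47 genes was 0.07, 0.07 and -0.04 in the 3 comparisons.

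Among the carriers, Rbp2, which holds retinol inside cells and is best known from the gut, was raised in each comparison. Its mean level was 2.35 ± 0.459 CPM (SD, n = 3) after PBS, 9.05 ± 7.43 with IL-17A, 15.8 ± 5.41 with IL-36γ and 29.5 ± 7.21 with both cytokines, with log2 fold changes of 1.94, 2.75 and 3.64 and adjusted p-values of 0.0334, 0.00202 and 0.000168. Fabp5, a fatty acid-binding protein of keratinocytes that can carry retinoic acid, was the most abundant of the called genes, with 368 ± 96.5 CPM in PBS mice and 1608 ± 362 CPM with both cytokines. It was raised after IL-36γ (log2 1.37, adjusted p = 0.00788) and after both cytokines (log2 2.13, adjusted p = 0.000318). Up to 2.97% of its 76-base windows were found in another gene.

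The further genes for enzymes of retinoid synthesis and storage that were called against PBS were Bco1, Aox1 and Awat2. Bco1, which cleaves β-carotene into retinal, fell after IL-36γ (log2 fold change -1.13, adjusted p = 0.0246) and after both cytokines (-1.29, adjusted p = 0.00886), from a low level of 2.20 ± 0.724 CPM in PBS mice. Aox1, an aldehyde oxidase that can turn retinal into retinoic acid, fell after both cytokines from 40.4 ± 9.48 to 19.1 ± 3.23 CPM (log2 fold change -1.08, adjusted p = 0.00146). Awat2, which esterifies retinol and wax alcohols in sebaceous glands, fell after IL-36γ (log2 fold change -1.16, adjusted p = 0.00206), and after both cytokines its value was -0.93, under the fold change threshold. None of the 13 further retinol dehydrogenases that were tested was called against PBS by edgeR. At an unadjusted p-value below 0.05 they numbered 3 higher and 1 lower with IL-17A, 4 and 4 with IL-36γ, and 5 and 4 with both cytokines, beside 31%, 41.8% and 52.3% of all genes.

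Cyp26a1, the close relative of Cyp26b1 that is known as a gene induced by retinoic acid, fell after both cytokines as well. It measured 11.2 ± 1.10 CPM in PBS mice, 13.2 ± 0.968 with IL-17A, 9.36 ± 2.12 with IL-36γ and 4.41 ± 1.95 with both cytokines, a log2 fold change of -1.33 against PBS for the last (SE 0.25, adjusted p = 0.00134). Rarb, a receptor for retinoic acid and itself a known target of it, fell by 1.49 on the log2 scale (SE 0.47, adjusted p = 0.0216), with levels of 0.803 to 2.38 CPM in PBS mice and 0.351 to 1.00 CPM with both cytokines that overlapped. Of its 76-base windows, 29.2% were shared with Top2b, so that its counts are uncertain.

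Genes known to respond to retinoic acid did not move together. Rarres1 fell after both cytokines (log2 fold change -1.25, SE 0.15, adjusted p = 8.5e-05), from 112 ± 19.8 to 46.9 ± 3.40 CPM. Rarres2, which encodes chemerin, was raised after IL-36γ (log2 1.17, adjusted p = 0.00522), with 25.8% of its windows shared with Lrrc61. Hbegf, a growth factor of keratinocytes, was raised after IL-36γ (log2 1.28, adjusted p = 0.000890) and after both cytokines (log2 1.23, adjusted p = 0.000454). Of the 6 genes of this list that were tested, 2 were raised and none lowered after IL-36γ, and 1 was raised and 1 lowered after both cytokines.

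**Figure D4:**
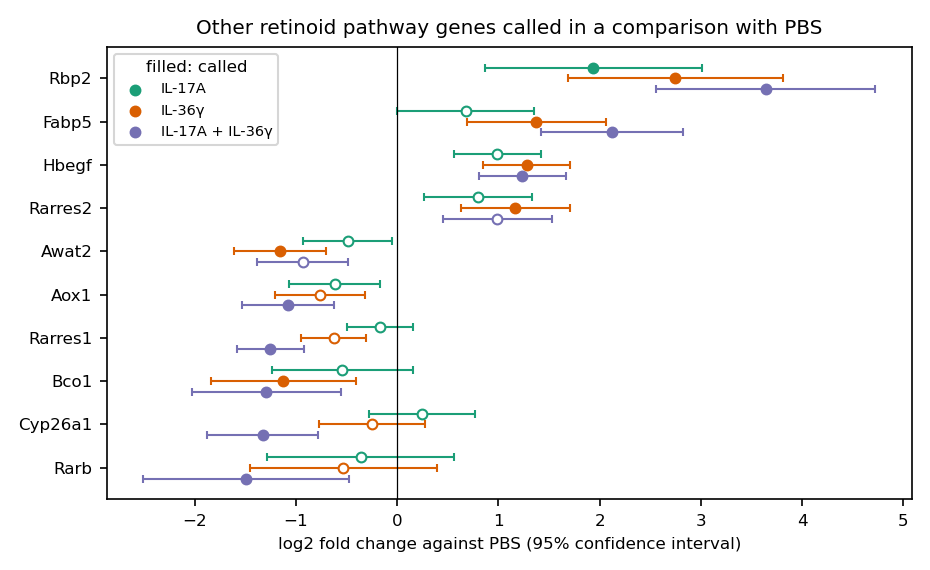
Log2 fold change against PBS (x axis) of the 10 further retinoid pathway genes called in at least 1 comparison with PBS, with 95% confidence intervals from edgeR; colours give the injection, and filled points were called. Rbp2 and Fabp5 lie on the right and rise to 3.64 and 2.13 after both cytokines, while Cyp26a1, Rarb, Rarres1, Bco1 and Aox1 lie on the left at -1.08 to -1.49 after both cytokines.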

How the data were processed

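RNA-Seq was run on ear tissue of 12 mice, 3 separate mice in each of 4 groups named in the sample labels. Reads were aligned by the authors with STAR 2.5.2b (mm10) and assigned to Ensembl genes by featureCounts of Subread 1.5.1, and the deposited counts are raw, 1 column per mouse. The strand setting of the counting is not given in the sources used here. The authors' 5 tables of DESeq2 fold changes and p-values were used only for gene symbols. In R 4.3.3, edgeR 4.0.16 was run with filterByExpr (minimum count 10), TMM scaling and 1 quasi-likelihood fit of the 12 libraries without a replicate block, with Benjamini-Hochberg adjustment over 19408 genes. The common biological coefficient of variation was 14.2%, and counting error is part of the spread tested. CPM use the TMM-scaled library sizes, and exon lengths come from GENCODE vM21 (GRCm38).

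The 9 genes, the 54 further pathway genes and the 17 lists of cell markers were chosen with earlier results of these data known. All 9 genes were named, with those of the 54 that were called against PBS and the 3 genes closest to each of the 9 that was called against PBS. The labels do not say that a replicate number marks a shared batch. Correlations of the deviations from the group means ran from -0.20 to 0.35 over 18 pairs with the same number (median 0.097, 9 above 0.1). Over 36 pairs with different numbers the median was lower, at -0.050 (9 above 0.1). The main fit still did not use the numbers as pairs, since the labels give no pairing, and a replicate block served as an alternative. Whether the numbers mark a shared batch was not tested. No library was a copy of another. Alternatives were DESeq2 1.42.0 with a likelihood ratio test, other scalings and filters, a fit of only 2 groups at a time, no threshold on the fold change, a replicate block and each library left out.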

Additional observations from a re-analysis of the deposited data

Results flagged for a closer look

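Aldh1a1 was set apart because the mice given IL-17A lay apart from their controls in opposite directions without and with IL-36γ, with no overlap. Neither difference passed the test of edgeR over all genes (adjusted p = 0.0890 and 0.120). All 3 mice given IL-17A alone lay above all 3 PBS mice, and all 3 mice given both cytokines lay under all 3 given IL-36γ alone. Such separation was the criterion for setting a gene apart, so it is no further support. The share of all genes that meet it was not counted. The test of the difference itself, the interaction of edgeR, gave -1.07 on the log2 scale (SE 0.22) with an adjusted p-value of 0.0532, over a range of 0.000421 to 0.148 across the alternatives.

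Aldh1a3 was set apart for the mirror image: all 3 mice given IL-17A alone lay under the PBS mice, and all 3 given both cytokines lay above those given IL-36γ alone. Here too neither difference passed the test of edgeR (adjusted p = 0.161 and 0.192). The interaction of Aldh1a3 was 1.32 (SE 0.35) with an adjusted p-value of 0.0758, over a range of 0.00611 to 0.192 across the alternatives.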

How the results depend on the processing

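Of 1181 values of the 9 genes under the alternatives, 1098 kept their direction and their side of the threshold, 9 lost and 13 gained a call, and 61 changed sign. Every value that changed sign belonged to a change that was called in no fit. Fitting only 2 groups at a time gave 0 called genes after IL-17A against PBS in place of 1. Without a fold change threshold 2 were called after IL-36γ and 3 after both cytokines, beside 28.4% and 44.6% of all genes. After both cytokines 3 were called with library size as the only scaling, 2 without a filter and 2 with at least 10 counts in every library. These stood beside 2871 of 19408, 3044 of 34054 and 1830 of 16593 genes. The added gene was Cyp26b1 and, for library size, also Aldh1a2. For the interaction, 2 genes were called without a filter, 2 by DESeq2 and 1 with a replicate block. Of all genes, these settings called 462 of 34054, 2742 of 22825 and 883 of 19408. The replicate block changed no other call of the 9 genes, and 8 of the 12 libraries correlated best with a library of their own number. Over all genes, interaction calls numbered 107 in edgeR, 883 with the replicate block, 2742 by DESeq2 and 3 with library size only, and calls after IL-17A numbered 407 in edgeR, 892 by DESeq2, 598 with library size only and 9 in the fit of 2 groups. Library size as the only scaling moved the median over all genes of the log2 fold change from 0.04 to -0.13 after IL-17A, from -0.01 to -0.17 after IL-36γ and from -0.03 to -0.17 after both cytokines, and raised genes made up 21.6% of the calls after IL-17A in place of 51.1%, 54.1% in place of 72% after IL-36γ and 41.9% in place of 54.8% after both. Under this scaling the sign changed for Rdh10 (-0.10), Crabp2 (-0.14) and Cyp26b1 (-0.078) after IL-17A, Crabp2 after IL-36γ (-0.10), Crabp1 after both cytokines (-0.061), Rdh10 for both against IL-36γ (0.0035) and the Rdh10 interaction (0.11). Crabp2 after IL-17A was -0.016 without a filter and -0.014 in the fit of 2 groups, and Rdh10 for both against IL-36γ was 0.0085 with DESeq2-type size factors and 0.0057 by DESeq2. The cause of these changes was not tested.

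With each library left out in turn, 0 to 1 genes were called after IL-17A, 0 to 1 for both cytokines against IL-36γ, 0 to 1 for IL-36γ against IL-17A and 0 to 2 for the interaction. Over all genes the calls then numbered from 11 (without PBS replicate 3) to 913 (without PBS replicate 1) after IL-17A, and from 1 (without IL-36γ replicate 1) to 1534 (without PBS replicate 1) for the interaction. They numbered from 0 to 62 for both cytokines against IL-36γ and from 69 to 392 for IL-36γ against IL-17A. Between 19651 and 19826 genes were tested in these fits. Log2 fold changes that changed sign after IL-17A ranged from -0.16 to 0.88 for Stra6, -0.043 to 0.18 for Rdh10, -0.15 to 0.35 for Crabp2 and -0.042 to 0.19 for Cyp26b1. After IL-36γ they ranged from -0.90 to 0.14 for Stra6, -0.16 to 0.051 for Rdh10, -0.25 to 0.14 for Aldh1a1, -0.57 to 0.0089 for Aldh1a3 and -0.12 to 0.37 for Crabp2. After both cytokines they ranged from -0.96 to 0.063 for Stra6, -0.17 to 0.048 for Rdh10 and -0.14 to 0.30 for Crabp1. For both cytokines against IL-36γ they ranged from -0.22 to 0.018 for Stra6, -0.11 to 0.074 for Rdh10 and -0.45 to 0.17 for Aldh1a2, and against IL-17A from -0.44 to 0.018 for Crabp1. For IL-36γ against IL-17A they ranged from -0.55 to 0.076 for Aldh1a2, -0.032 to 0.46 for Aldh1a3 and -0.045 to 0.15 for Crabp2. The interaction ranged from -0.96 to 0.093 for Stra6, -0.18 to 0.049 for Rdh10 and -0.12 to 0.37 for Crabp1. Counts were lowest for Aldh1a2, at 6 to 38, and Stra6, at 48 to 194, while 6 of the 9 genes had at least 100 counts in every library.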

Other observations

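Further lists of markers were measured, and their part in the results of the 9 genes was not tested. The 6 markers of dendritic and Langerhans cells summed to 35.4 to 54.1 CPM in PBS mice and 23.9 to 28.9 CPM with both cytokines, where 1 was raised and 1 lowered. The 5 T cell markers summed to 24.1 to 27.7 CPM in PBS mice and to at most 17.7 CPM with both cytokines, with 1 raised and 1 lowered.

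The 5 sebaceous gland markers, a tissue in which retinoids are used as drugs, summed to 188 to 354 CPM in PBS mice and 180 to 268 CPM with both cytokines, and none of them was called against PBS. The 6 hair follicle markers summed to 42.4 to 56.2 CPM and 20.2 to 29.1 CPM, with none called after both cytokines and 1 lowered after each single cytokine. The 5 endothelial markers summed to 135 to 152 CPM and 136 to 145 CPM, with none called. The 5 skeletal muscle markers summed to 71.0 to 588 CPM with both cytokines, with none called against PBS.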
